A study of Mus musculus with 4 samples.

Results

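*Fkbp5* and 8 other genes that glucocorticoid hormones are known to induce (*Zbtb16*, *Tsc22d3*, *Per1*, *Klf9*, *Sgk1*, *Errfi1*, *Pdk4* and *Glul*) were followed across the cell populations of the fetal mouse penis. They were taken by gene symbol from a list of names, which was drawn up with earlier results of these data known, and are 9 of the 32285 genes in the count matrices. Single-cell RNA sequencing had been run on male genitalia at embryonic day (E) 16.5, during closure of the urethra, in 2 control samples (DTA-) and 2 ablated samples (DTA+). Both genotypes carry *Rosa-LSL-DTA* (f/+), a diphtheria toxin gene that stays silent until Cre removes a stop cassette. DTA+ embryos carry in addition *Nr5a1-Cre* (Tg/+), a transgene under control of the steroidogenic factor gene *Nr5a1*, and by the methods *Rosa-LSL-tdTomato*, a red reporter; DTA- embryos have no Cre, and GEO's genotype label for them is WT. Because *Nr5a1-Cre* is also active in steroid-making organs, DTA+ embryos had small testes and no adrenal glands could be found in them, so loss of the penile *Nr5a1* lineage, loss of testis hormones and loss of adrenal hormones cannot be told apart in this design.

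Glucocorticoids are steroid hormones made in the adrenal cortex. They enter cells and bind the glucocorticoid receptor (*Nr3c1*), which leaves its chaperone complex, moves to the nucleus and activates genes through DNA elements that it can share with the androgen, progesterone and mineralocorticoid receptors. FKBP5, one of the best known products of this response, sits in the receptor's chaperone complex and lowers its affinity for hormone, closing a feedback loop. The androgen receptor also activates several of these genes, *Fkbp5* and *Zbtb16* among them, in tissues that respond to androgen. The other members serve as transcription regulators (*Zbtb16*, *Klf9*, *Tsc22d3* and the clock gene *Per1*), as a kinase and an inhibitor of signaling (*Sgk1* and *Errfi1*), or as metabolic enzymes (*Glul* and *Pdk4*).

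The 4 matrices held 11343 to 12580 cells and 50779551 to 73577028 unique molecular identifiers (UMIs, 1 per captured RNA molecule) each, and 31132 of the 47040 cells passed the limits that the study's methods give. DTA- 1 stood apart from the other libraries. It was the deepest, 52.3% of its cells were kept against 67.8% to 77.7% elsewhere, and it had the lowest value of the 4 in 15 of 18 immediate early and stress genes, which dissociation of tissue can induce. Between 31 and 48 cell barcodes were shared by any pair of libraries. The cells fell into 27 clusters, of which 21 could be named from markers; a name means only that marker profile. Clusters of 1 name were joined, unnamed ones go by their leading genes, and 18 populations had at least 20 cells in every sample. The osteogenic name joins clusters 8 and 15, and *Runx2* and *Sp7* were not among the markers enriched in cluster 15. The general prepuce joins clusters 6, 7 and 19, of which DTA- 2 gave 820 cells to cluster 6 and DTA+ 2 gave 340 to cluster 19.

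Over all cells kept, *Fkbp5* fell 6.21-fold in the ablated penis, and it was the gene with the second lowest p-value of 15977 tested. UMIs were summed per sample and are given as CPM, a gene's UMIs scaled to a common library total. *Fkbp5* was at 76.6 and 77.6 CPM in the DTA- samples and at 12.1 and 12.7 CPM in the DTA+ samples. The replicates differed by little and the genotypes were far apart, with a log2 fold change of -2.63 (SE 0.120) and a Benjamini-Hochberg adjusted p of 0.00178 in the quasi-likelihood test of edgeR, the test behind every adjusted p below. It was 1 of 9 members past the adjusted p of 0.05 in that direction, beside 0.225% of all genes tested, and none of the 9 was called higher, beside 0.263%. With each of 14 alternatives of processing in turn, left-out libraries included, the *Fkbp5* difference stayed called and between -2.78 and -2.39.

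**Figure D1:**
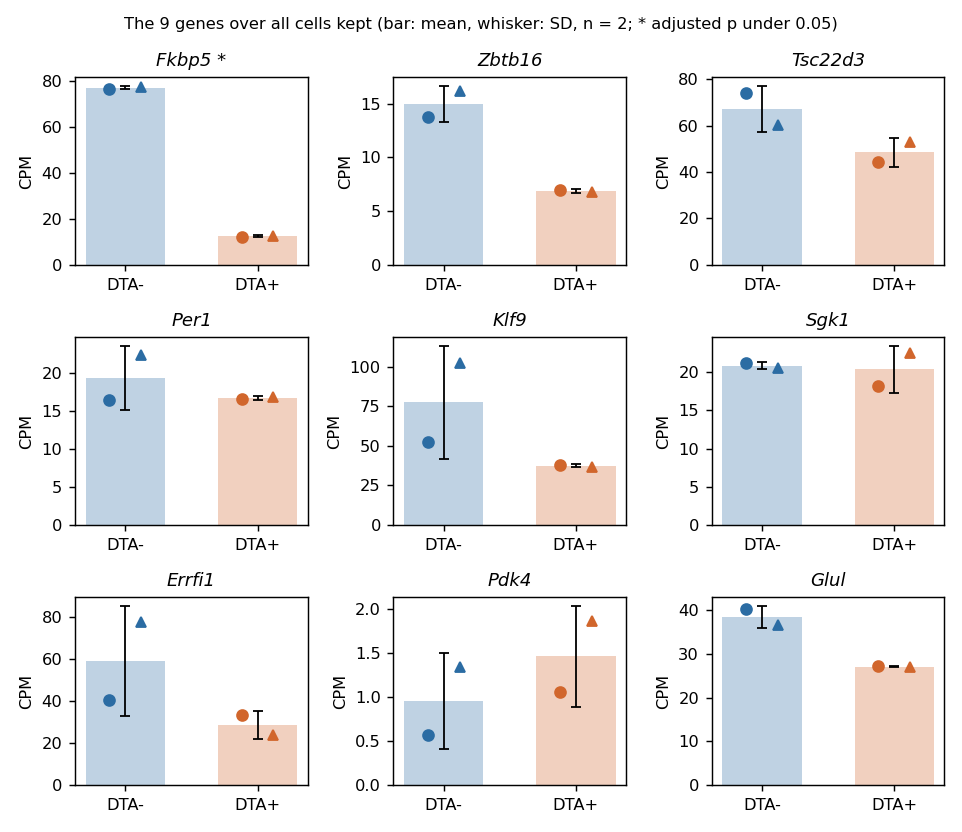
Level of the 9 genes over all cells kept, in CPM (vertical axes, each starting at 0) by genotype (horizontal axes); circles are replicate 1, triangles replicate 2, bars the mean and whiskers the SD of the 2 samples. Fkbp5 lies at 76.6 and 77.6 CPM in DTA- against 12.1 and 12.7 CPM in DTA+ and carries the only star, while Sgk1, Per1 and Pdk4 overlap between genotypes.

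The gene lies on chromosome 17 (ENSMUSG00000024222; chr17:28399094-28517527 of GRCm38, minus strand). Sequence before the start sites of the members is shown because it is where promoter-near receptor sites would be read. RefSeq windows of the 250 bases before a start site (assembly GRCm38.p6) were matched for 8 members, 17 windows in all, with none for *Zbtb16*. In the *Fkbp5* window, at chr17:28486150-28486399 on the minus strand, no exon is annotated, and capitals mark CACGTG, the E-box read by the clock factors among others, 169 to 164 bases before the start. The window lies within the annotated gene and 3 of its transcripts run across it, so it does not precede the start of every transcript.

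Fkbp5: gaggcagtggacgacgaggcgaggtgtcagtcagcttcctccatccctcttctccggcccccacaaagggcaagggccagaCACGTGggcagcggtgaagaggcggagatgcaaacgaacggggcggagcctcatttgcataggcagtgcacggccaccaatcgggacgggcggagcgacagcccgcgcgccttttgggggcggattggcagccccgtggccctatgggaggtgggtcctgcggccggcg

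Of all 32851 windows, 6.02% hold CACGTG, and among the members windows of *Fkbp5*, *Per1* and *Sgk1* do. The receptor's palindrome, searched on both strands as GNACA and TGTNC with any 3 bases between them, is in 0.387% of all windows, and 1 of the 17 member windows holds it, a window of *Sgk1*. These letters are not in the *Fkbp5* window.

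*Fkbp5* was lower in DTA+ in each of the 14 populations in which it passed the filter on low counts, and it was called in 12, beside 1.42% of genes called lower in those populations. In 13 of the 14 both DTA- values lay above both DTA+ values, beside 22% of genes. The median log2 fold change was -2.35, with a range from -4.88 to -0.75. For 3 of the 14 (erythroid, macrophage and the Rprm/Dsc3 cluster) only the DTA- samples reached the filter's limit. No population tested had a positive fold change of *Fkbp5* under any of the alternatives tried. Populations differed in how many genes of any kind were called lower: 5.09% in the corpus cavernosum, 3.09% in the Coch/Meox2 cluster, 2.18% in the distal glans, 2.17% in the general prepuce, 1.6% in the periurethra, 1.12% in the Sostdc1/Wnt16 cluster, 0.677% in the osteogenic mesenchyme, 0.358% in the Kera/Nefl cluster, 0.317% in the Irx1/Col7a1 cluster, 0.233% in proliferating cells, 0.142% in erythroid cells and 0.0647% in the Rprm/Dsc3 cluster.

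**Figure D2:**
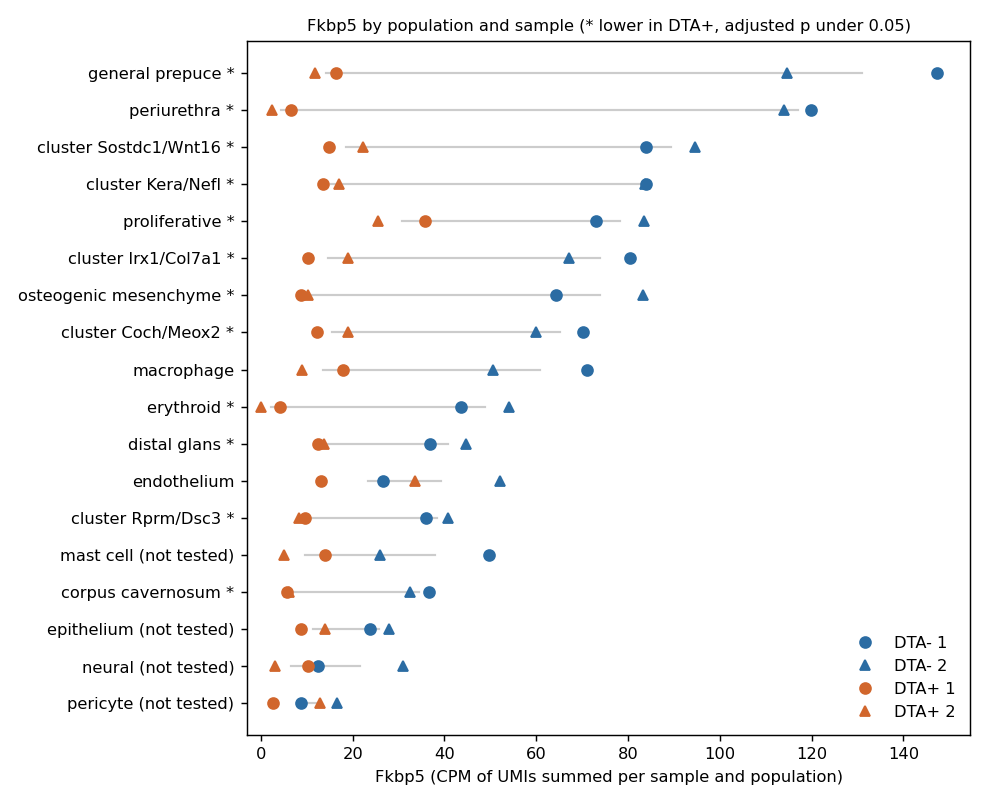
Fkbp5 in CPM (horizontal axis) in each of the 18 populations (vertical axis, ordered by the DTA- mean), with a symbol for each sample and a grey line between the genotype means. DTA- samples of the general prepuce and periurethra lie between 114.1 and 147.3 CPM, their DTA+ samples between 2.33 and 16.4 CPM, and endothelium and pericyte are populations whose genotypes overlap.

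The most negative value of *Fkbp5* in the main fit was in the periurethra, the mesenchyme that surrounds the closing urethra. Erythroid cells, described below, came next at -4.00 and reached -8.10 among the alternatives. These populations were not tested against each other. In the periurethra *Fkbp5* stood at 119.9 and 114.1 CPM in DTA- and at 6.47 and 2.33 CPM in DTA+. Both DTA+ samples were thus among the lowest of any population after starting from one of the highest control levels, a 29.4-fold fall (log2 fold change -4.88, SE 0.309, adjusted p = 0.000129 by edgeR). The size rested on which ablated library was used, at -5.62 without DTA+ 1 and -4.17 without DTA+ 2, called in both. In the general prepuce it went from 147.3 and 114.7 CPM to 16.4 and 11.9 CPM, with no overlap (-3.24, adjusted p = 0.000193 by edgeR). The osteogenic mesenchyme followed, at 64.4 and 83.2 CPM in DTA- and 8.66 and 10.2 CPM in DTA+ (-2.92, adjusted p = 0.000131 by edgeR). Tested cluster by cluster, *Fkbp5* was called lower in 17 of 19 clusters, beside 1.69% of genes. Both clusters of the periurethra gave nearly the same fold change alone, -4.89 and -4.69. The DTA+ counts behind them were small, at 8 and 2 UMIs in cluster 9 and 5 and 6 UMIs in cluster 11.

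In the corpus cavernosum, the cartilage-like erectile core, *Fkbp5* was at 36.6 and 32.4 CPM in DTA- and 5.70 and 6.23 CPM in DTA+. Control levels were low there and the genotypes were still separate (-2.53, adjusted p = 2.89e-06 by edgeR). The distal glans went from 37.0 and 44.7 CPM to 12.5 and 13.8 CPM, a smaller fall (-1.60, adjusted p = 0.00118 by edgeR). Its 2 clusters differed in size of change, with -2.31 in cluster 2 and -0.85 in cluster 3. Proliferating cells had 73.1 and 83.6 CPM in DTA- and 35.8 and 25.5 CPM in DTA+ (-1.35, adjusted p = 0.0128 by edgeR), the first place among DTA+ means but overlapping with endothelium. That call was lost without DTA+ 2, at an adjusted p of 0.346 by edgeR.

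In 5 clusters known only by their leading genes *Fkbp5* was called lower as well. Levels were 83.9 and 94.6 against 14.8 and 22.3 CPM in the Sostdc1/Wnt16 cluster (-2.26), and 80.5 and 67.2 against 10.2 and 19.0 CPM in the Irx1/Col7a1 cluster (-2.44). In the Kera/Nefl cluster they were 83.8 and 83.6 against 13.5 and 16.9 CPM (-2.45), and in the Coch/Meox2 cluster 70.3 and 59.9 against 12.2 and 18.9 CPM (-2.10). The 4 clusters resemble each other in control level and in the size of the fall, and none overlaps between genotypes. The Rprm/Dsc3 cluster started lower, at 36.0 and 40.9 CPM, and ended at 9.52 and 8.34 CPM (-2.10, adjusted p = 0.0364 by edgeR), a call lost in 6 of 15 alternatives, among them without DTA- 1 and without DTA+ 2. Without DTA- 2 the Kera/Nefl value was -2.46 and no longer called (adjusted p = 0.685 by edgeR).

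Outside the mesenchyme the counts were small in both genotypes. Endothelium had 26.6 and 52.0 CPM in DTA- and 13.1 and 33.7 CPM in DTA+, so its samples overlapped (-0.75, adjusted p = 0.839 by edgeR). Macrophages had 71.0 and 50.5 CPM against 17.8 and 9.02 CPM, which do not overlap but rest on 21, 17, 6 and 3 UMIs (-2.13, adjusted p = 0.257 by edgeR); no gene was called in macrophages in either direction, where 190 had an unadjusted p under 0.05. Epithelium (10, 10, 5 and 5 UMIs), mast cells (9, 5, 4 and 1), glia-like neural cells (3, 9, 4 and 1) and pericytes (1, 6, 1 and 3) did not pass the filter. The DTA- and DTA+ levels of pericytes overlapped.

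Erythroid cells were called lower at 43.5 and 54.0 CPM against 4.22 and 0 CPM, which are 34, 53, 3 and 0 UMIs (-4.00, adjusted p = 0.000806 by edgeR); a count of 0 in DTA+ 2 allows a level of up to 9.48 CPM (3 UMIs), counting error only. DESeq2 did not call it (adjusted p = 0.0568), and the fitted value depends on how that 0 is treated. These cells also held *Col1a1*, a collagen gene of the mesenchyme, at 48.3% to 76.8% of its level over all cells. Per 1000 *Col1a1* UMIs they had 31.7 and 34.4 *Fkbp5* UMIs in DTA-, near the 37.6 and 26.7 over all cells. RNA of mesenchymal cells, free or not, could thus not be told apart from expression by erythroid cells. How it came to be in this population was not tested. Macrophages held *Col1a1* at 3.20% to 9.80% of the level over all cells, and their ratio was 1105 and 279 in DTA- and 128 and 54.5 in DTA+, above that over all cells in each sample.

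Control levels set on 1 scale over all populations gave an order. The general prepuce was highest, at 128.6 ± 21.2 CPM (SD, n = 2), followed by the periurethra at 108.8 ± 2.86 CPM and the Sostdc1/Wnt16 cluster at 88.6 ± 7.85 CPM; each of these stood clear of the next in both samples. From the fourth place to the tenth, neighbours overlapped, between 79.0 CPM in the Kera/Nefl cluster and 66.0 CPM in macrophages. Mast cells to corpus cavernosum, places 11 to 15, lay between 43.2 and 32.8 CPM with no neighbours apart. Pericytes were lowest, at 12.5 ± 6.45 CPM. In DTA- 5 of 17 neighbouring pairs did not overlap, and in DTA+ 0 of 17. The periurethra moved from the second place in DTA- to the 17th in DTA+, at 4.05 ± 2.64 CPM.

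Fewer cells carried the transcript as well. An *Fkbp5* UMI was found in 26.0% and 24.4% of DTA- cells and in 4.34% and 4.68% of DTA+ cells, at median depths of 4700 and 4077 against 3551 and 3560 UMIs. After each cell was thinned to 1000 UMIs the shares were 6.28% and 6.99% against 1.12% and 0.999%, so the genotypes stayed apart at equal depth. In the periurethra 38.6% and 33.5% of control cells and 2.38% and 0.887% of ablated cells had one. No population can be taken to lack *Fkbp5*, so no share can serve as pure background; erythroid cells had 20.7% and 19.0% in DTA- and 1.74% and 0% in DTA+, at median depths of 4591 to 5172 UMIs, and the ablated periurethra lies near their DTA+ values.

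All 9 genes were then tested in all 18 populations. Of 162 pairs of gene and population 112 passed the filter on low counts, and 92 of these had a negative and 20 a positive log2 fold change. Called lower were 25 and called higher 1, beside 1.27% and 1.18% of all tests of a gene in a population. In 8 of the 112 only the DTA- samples reached the filter's limit, and in none only the DTA+ samples. *Fkbp5* accounts for 12 of the 25, *Klf9* for 5, *Zbtb16* for 4, *Errfi1* for 2, and *Glul* and *Per1* for 1 each.

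**Figure D3:**
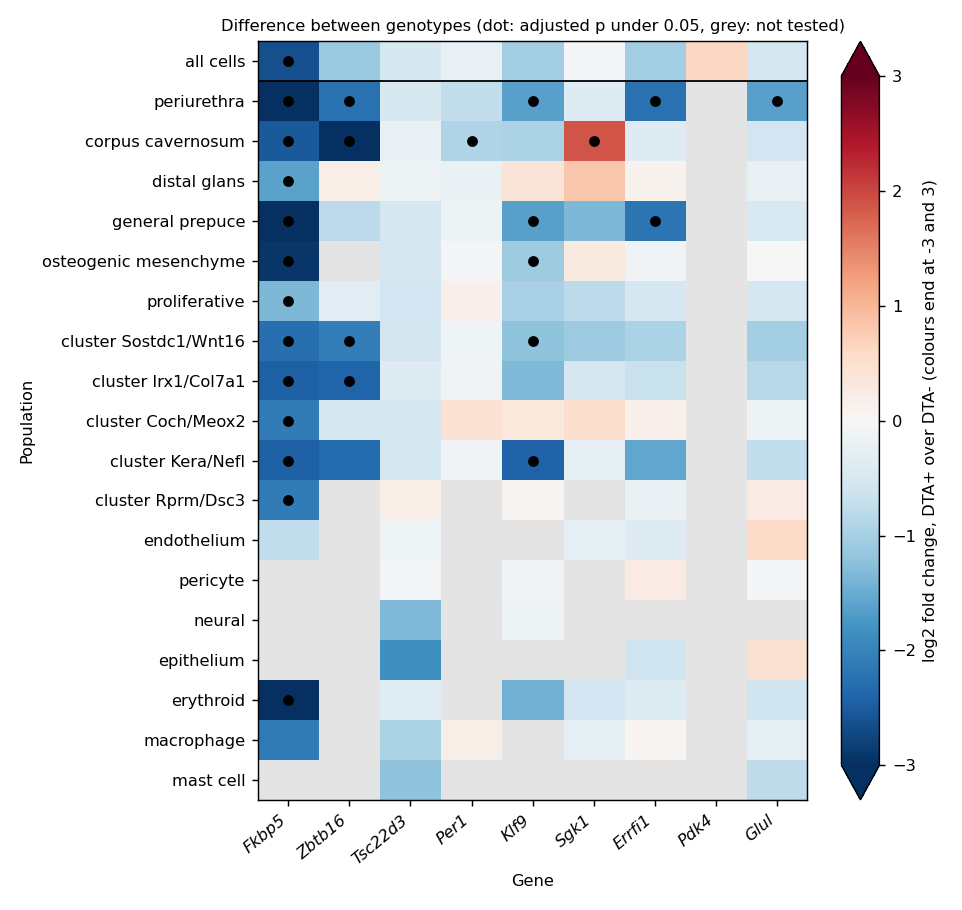
Log2 fold change of DTA+ over DTA- (colour, blue lower and red higher in DTA+) for the 9 genes (horizontal axis) over all cells and in 18 populations (vertical axis); dots mark an adjusted p under 0.05 and grey fields were not tested. Dots fall on 25 negative fields and 1 positive field among the 18 populations, with Fkbp5 dotted in 12 and Sgk1 in the corpus cavernosum as the positive one.

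Whether the genotype difference varied between populations was tested in 1 model of all 18, in which 6.35% of 14126 genes were called. It did for 6 of the 9 members, with adjusted p-values by edgeR of 2.24e-07 for *Fkbp5*, 3.46e-09 for *Errfi1*, 2.5e-06 for *Klf9*, 0.000112 for *Sgk1*, 0.000125 for *Glul* and 0.00193 for *Zbtb16*. For *Tsc22d3* (0.761), *Per1* (0.395) and *Pdk4* (0.838) no difference between populations was detected.

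*Zbtb16* (ENSMUSG00000066687; chr9:48654297-48836222) encodes PLZF, a zinc-finger transcription factor needed for patterning of limb and skeleton. Over all cells it was at 13.8 and 16.1 CPM in DTA- and at 6.98 and 6.76 CPM in DTA+. The genotypes did not overlap, but the adjusted p was 0.0542 (log2 fold change -1.12, edgeR); without DTA- 1 it was -1.23 and called (adjusted p = 0.0406 by edgeR), and 8 of 14 alternatives put it past 0.05, with adjusted p-values from 2.04e-05 to 0.0885. It was called lower in 4 of 9 populations tested, beside 1.27% of all tests of a gene in a population. In the corpus cavernosum it went from 10.8 and 6.80 CPM to 0.670 and 1.39 CPM (-3.05, SE 0.545, adjusted p = 0.00105 by edgeR), where 5.09% of genes were called lower. The Irx1/Col7a1 cluster had 19.0 and 28.6 CPM against 4.07 and 5.52 CPM (-2.40), and the Sostdc1/Wnt16 cluster 14.5 and 16.5 CPM against 2.97 and 4.33 CPM (-2.07). These DTA+ values all lay well under the controls, and so did the periurethra's 2.99 and 1.45 CPM under 8.18 and 11.7 CPM (-2.23, adjusted p = 0.0429 by edgeR). The last call depended on the samples, since it was lost when any 1 of DTA- 1, DTA- 2 and DTA+ 2 was left out; the Irx1/Col7a1 call was lost without DTA- 2. In the corpus cavernosum and periurethra only the DTA- samples reached the filter's limit.

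*Zbtb16* did not fall everywhere. The distal glans had 16.2 and 20.8 CPM in DTA- and 28.5 and 15.3 CPM in DTA+, so the genotypes overlapped (0.19, adjusted p = 0.760 by edgeR), and its DTA+ mean came first of the 18 populations, overlapping with the general prepuce. The general prepuce had 22.4 and 27.7 CPM against 16 and 13.6 CPM, apart but not called (-0.78, adjusted p = 0.0993 by edgeR). Of its clusters tested singly, cluster 6 was called lower, beside 1.51% of all tests over single clusters. It went from 18.6 and 26.0 CPM to 9.81 and 9.57 CPM (-1.28, adjusted p = 0.0460 by edgeR). Cluster 7 was not called (-0.80, adjusted p = 0.120 by edgeR).

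*Klf9* (ENSMUSG00000033863; chr19:23141226-23168134) encodes a Krüppel-like factor that glucocorticoid and thyroid hormone induce. Over all cells it stood at 52.3 and 102.5 CPM in DTA- and at 38.1 and 36.8 CPM in DTA+. DTA- 2 stood far above the other 3 samples, and the difference was not called (-1.05, adjusted p = 0.191 by edgeR); without DTA- 1 it was -1.45 and called (adjusted p = 0.0162 by edgeR). Among populations it was called lower in 5 of 14, beside 1.27% of all tests of a gene in a population. The Kera/Nefl cluster went from 65.6 and 135.8 CPM to 14.7 and 23.0 CPM (-2.42), and the general prepuce from 71.3 and 125.7 CPM to 36.5 and 27.8 CPM (-1.64). In the periurethra, 93.7 and 190.5 CPM stood against 53.7 and 39.3 CPM (-1.62, adjusted p = 0.0254 by edgeR). The higher control value was DTA- 2 in each of these, and without that library the periurethra value was -1.03 and the Kera/Nefl value -1.80, neither called (adjusted p = 0.135 and 0.685 by edgeR). The general prepuce value was -0.93 and not called when samples were integrated before clustering (adjusted p = 0.411 by edgeR). Its clusters also differed when tested singly. Cluster 7 was called lower, from 89.1 and 171.2 CPM to 18.2 and 26.0 CPM (-2.56, adjusted p = 6.55e-05 by edgeR). In cluster 6 the genotypes overlapped, at 47.4 and 102.6 against 48.3 and 45.1 CPM (-0.78, adjusted p = 0.231 by edgeR). The Sostdc1/Wnt16 cluster (-1.21) kept its call without any 1 library, and the osteogenic mesenchyme (-1.06) lost it without DTA+ 1. *Klf9* rose in cluster 3 of the distal glans tested by itself, from 12.5 and 24.7 CPM to 37.8 and 51.7 CPM (1.37, SE 0.273, adjusted p = 0.00238 by edgeR), the 1 called higher of 19 single clusters beside 5 called lower. Cluster 2 of the distal glans did not show this, at 33.9 and 56.6 against 32.1 and 41.2 CPM (-0.25, adjusted p = 0.745 by edgeR). Over single clusters 1.51% of all tests were called lower and 1.44% higher. Values in the Coch/Meox2 cluster also went up, with 54.0 and 69.3 CPM under 74.1 and 78.8 CPM (0.31, adjusted p = 0.335 by edgeR).

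*Per1* (ENSMUSG00000020893; chr11:69095217-69109960) is a repressor of the circadian clock and is induced quickly by glucocorticoids. It was called lower in 1 of 11 populations, the corpus cavernosum, where 5.09% of genes were called lower. In the corpus cavernosum it had 16.6 and 22.4 CPM against 9.72 and 11.1 CPM (-0.90, adjusted p = 0.0461 by edgeR), a call that 10 of 17 alternatives lost. Over all cells the samples overlapped, at 16.4 and 22.3 CPM in DTA- and 16.6 and 16.9 CPM in DTA+.

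*Tsc22d3* (ENSMUSG00000031431; chrX:140539528-140600659) encodes GILZ, a leucine zipper protein that restrains inflammatory transcription. It was the only member tested in all 18 populations and was called in none, at 74.2 and 60.2 CPM over all cells in DTA- and 44.1 and 52.8 CPM in DTA+ (-0.47, SE 0.155, adjusted p = 0.245 by edgeR). The sign was negative in 17 of 18 and the median was -0.50. In 1 of the 18 only the DTA- samples reached the filter's limit, so its sign and the order of its samples were fixed in advance. In 10 both control samples were above both ablated ones, where 21.4% of all tests had that order. The populations come from the same 4 libraries, so they are not independent observations of *Tsc22d3*. Over all cells it was called, with the replicate numbers crossed, in 1 of 14 alternatives. The first place among the means was held by macrophages, overlapping with mast cells, at 169.2 and 127.7 CPM in DTA- and 65.4 and 87.2 CPM in DTA+ (-0.95, not called).

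**Figure D4:**
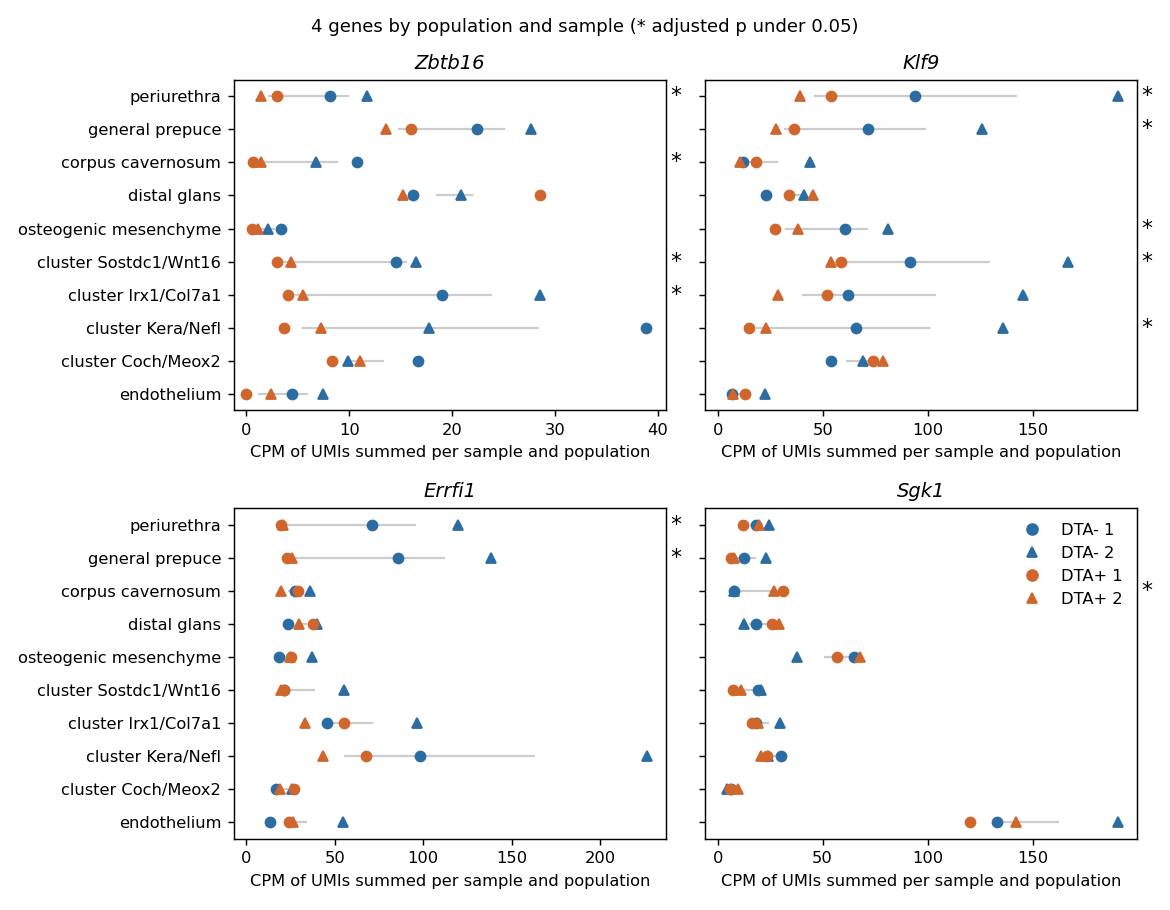
Zbtb16, Klf9, Errfi1 and Sgk1 in CPM (horizontal axes, each with its own range) in 10 populations (vertical axis), with a symbol for each sample, a grey line between the genotype means and a star for an adjusted p under 0.05. DTA+ samples lie left of DTA- samples at every star but the one for Sgk1 in the corpus cavernosum, where 31.2 and 27.0 CPM stand right of 7.71 and 8.01 CPM.

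*Sgk1* (ENSMUSG00000019970; chr10:21882184-21999903) encodes a serine/threonine kinase that controls sodium channels and cell survival. It was the 1 member called higher in a named population. In the corpus cavernosum it went from 7.71 and 8.01 CPM in DTA- to 31.2 and 27.0 CPM in DTA+. Replicates were close and the genotypes well apart (1.88, SE 0.270, adjusted p = 9.72e-05 by edgeR), where 4.25% of genes were called higher. This call held in all 18 alternatives, between 1.78 and 1.98. The same cells had *Fkbp5*, *Zbtb16* and *Per1* called lower, beside 5.09% of genes.

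Direction differed between populations for *Sgk1*. Distal glans had 18.3 and 12.5 CPM in DTA- under 25.7 and 29.5 CPM in DTA+ (0.81), while general prepuce had 12.5 and 23.1 CPM above 6.33 and 7.55 CPM (-1.36), each with an adjusted p of 0.0539 by edgeR. Neither pair overlapped and neither was called. Tested by single cluster it was lower in cluster 6 of the general prepuce, from 24.7 and 29.8 CPM to 6.04 and 7.52 CPM (-2.05, adjusted p = 0.00306 by edgeR), and higher in cluster 15 of the osteogenic mesenchyme, from 28.4 and 21.0 CPM to 96.7 and 97.9 CPM (2.00, adjusted p = 0.00313 by edgeR). Cluster 8, joined with it as osteogenic, had 76.6 and 54.4 CPM against 29.3 and 51.1 CPM, so the joined value of 0.26 covers clusters with values of opposite sign, of which the negative one was not called. The joined distal glans value also covers opposite signs. Its cluster 2 had 27.6 and 15.85 against 37.9 and 51.3 CPM (0.996). Its cluster 3 had 9.58 and 8.98 against 6.62 and 5.88 CPM (-0.66), and neither was called. Over all cells *Sgk1* had 21.2 and 20.5 CPM against 18.2 and 22.5 CPM (-0.03), and in endothelium, its highest level, 133.2 and 190.7 CPM against 120.4 and 141.9 CPM (-0.30), with overlap in both.

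The *Sgk1* window with the receptor palindrome lies at chr10:21993640-21993889 on the plus strand, before the start of 1 of its transcripts and over no annotated exon. Capitals mark the stricter form, AGAACA and TGTTCT with 3 bases between, which also contains the looser one, 189 to 175 bases before the start, and CACGTG 246 to 241 bases before it. Of all windows 0.00913% hold that stricter form.

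Sgk1: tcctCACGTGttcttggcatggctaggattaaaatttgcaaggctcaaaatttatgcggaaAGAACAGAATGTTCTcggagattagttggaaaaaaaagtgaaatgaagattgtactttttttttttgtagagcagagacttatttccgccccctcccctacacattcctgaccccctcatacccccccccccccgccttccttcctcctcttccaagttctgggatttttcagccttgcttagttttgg

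*Errfi1* (ENSMUSG00000028967; chr4:150853919-150868892) encodes MIG6, a feedback inhibitor of the epidermal growth factor receptor. It was called lower in 2 of 16 populations. The periurethra went from 70.9 and 119.9 CPM to 19.4 and 20.7 CPM (-2.23, SE 0.266, adjusted p = 0.00276 by edgeR), beside 1.6% of genes called lower there. The general prepuce went from 85.6 and 138.2 CPM to 23.1 and 25.7 CPM (-2.19, adjusted p = 0.00133 by edgeR), beside 2.17%. Ablated samples were close to each other and lay far under both controls. Both calls held in all 18 alternatives that tested populations of these names. Of the periurethra's clusters tested singly, cluster 11 was called lower (-2.44) and cluster 9 was not (-1.49, adjusted p = 0.0739 by edgeR). Clusters 6 (-2.12) and 7 (-2.56) of the general prepuce were each called lower, beside 1.51% of all tests over single clusters. In the distal glans (23.7 and 39.8 against 37.4 and 29.6 CPM) and the osteogenic mesenchyme (18.4 and 37.1 against 25.4 and 24.8 CPM) the genotypes overlapped. Over all cells DTA- 2 was again the higher control, at 77.5 against 40.4 CPM, with 33.2 and 24.0 CPM in DTA+ (-1.04, adjusted p = 0.213 by edgeR), and without DTA- 1 the value was -1.44 and called (adjusted p = 0.0469 by edgeR).

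*Glul* (ENSMUSG00000026473; chr1:153899944-153909723) encodes glutamine synthetase. It was called in 1 of 17 populations, the periurethra, at 84.2 and 80.4 CPM in DTA- and 33.3 and 21.2 CPM in DTA+ (-1.63, SE 0.221, adjusted p = 0.00483 by edgeR). Of all genes tested there 1.6% were called lower. The genotypes were apart, and the call was lost without DTA- 1 (adjusted p = 0.101 by edgeR). Tested by single cluster *Glul* was called lower in 3 of 22, beside 1.51% of all tests. These were clusters 9 and 11 of the periurethra and cluster 6 of the general prepuce. In cluster 6 it went from 37.8 and 37.2 CPM to 18.9 and 16.4 CPM (-1.12, adjusted p = 0.0229 by edgeR). The osteogenic mesenchyme showed no shift, at 41.6 and 43.3 against 46.0 and 39.7 CPM (0.00, SE 0.189). In endothelium DTA- was the lower group, at 71.0 and 81.7 against 120.4 and 108.3 CPM (0.59, adjusted p = 0.835 by edgeR). *Pdk4* (ENSMUSG00000019577; chr6:5483351-5496309), which encodes a kinase that holds back pyruvate oxidation, was near the limit of detection: 0.570 and 1.34 against 1.05 and 1.86 CPM over all cells, and tested in 0 of 18 populations.

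Read by population, 5 of the 8 members tested in the periurethra were called lower (*Fkbp5*, *Zbtb16*, *Klf9*, *Errfi1* and *Glul*), beside 1.6% of genes there. Of these, *Zbtb16* passed the filter there only through the DTA- samples. Without DTA- 2 the *Zbtb16* and *Klf9* calls were lost, and without DTA- 1 those of *Zbtb16* and *Glul*. The *Zbtb16* call was also lost without DTA+ 2. Each of the 5 was called lower in cluster 11 tested by itself, but only *Fkbp5* and *Glul* were in cluster 9. Over single clusters 1.51% of all tests were called lower. *Errfi1* (-1.49), *Klf9* (-1.24) and *Zbtb16* (-1.70) were not called in cluster 9 (adjusted p = 0.0739, 0.0892 and 0.177 by edgeR). In the corpus cavernosum *Fkbp5*, *Zbtb16* and *Per1* fell and *Sgk1* rose, beside 5.09% of genes called lower and 4.25% higher. *Zbtb16* passed the filter there too only through the DTA- samples, and 10 of 17 alternatives lost the *Per1* call. The general prepuce had *Fkbp5*, *Klf9* and *Errfi1* called lower, beside 2.17% of genes, and the distal glans *Fkbp5* alone, beside 2.18%. Its clusters differed too when tested singly, beside the same 1.51% of all tests. Cluster 6 of the general prepuce had *Fkbp5*, *Zbtb16*, *Sgk1*, *Errfi1* and *Glul* called lower, and *Klf9* not called. Cluster 7 of the general prepuce had *Fkbp5*, *Klf9* and *Errfi1* called lower. Several members called lower at once were thus not particular to the periurethra. Over all cells kept, single cells held fewer members at once in DTA+: at least 3 of the 9 were found in 12.9% and 14.9% of DTA- cells and in 3.14% and 3.10% of DTA+ cells, at the depths given above. These cells were not thinned to equal depth, and *Fkbp5* is among the 9 counted. The shares therefore do not show a joint fall of the other members.

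Among 6294 genes, those with levels most like *Fkbp5* over the 72 sums of population and sample included *Dnajb11* (Pearson r = 0.58), *Sec61b* (0.57), *Srm* (0.56) and *Tmem256* (0.56). These are descriptions over sums that share libraries and that pool genotypes far apart in *Fkbp5*. Within DTA- and within DTA+ the values were 0.49 and 0.46 for *Dnajb11*, 0.53 and 0.21 for *Sec61b*, 0.46 and 0.30 for *Srm*, and 0.13 and 0.30 for *Tmem256*. Among the members *Tsc22d3* came nearest, at 0.41 and rank 110.

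The receptor itself was measured in all samples. *Nr3c1* was at 66.4 and 96.2 CPM in DTA- and at 114.0 and 87.7 CPM in DTA+ over all cells, which overlap (0.31, adjusted p = 0.532 by edgeR). Of 17 genes of the receptor's machinery (receptors, chaperones, coregulators and the enzymes that activate or inactivate the hormone) 0 were called over all cells, and the median of -0.05 was near the 0.00 of all genes. Within populations 6 of 238 tests (2.52%) were lower and 8 (3.36%) higher, beside 1.27% and 1.18% of all tests. *Nr3c1* rose in the Coch/Meox2 cluster (0.89) and the distal glans (0.87), 2 of 18 populations, and *Ncoa2*, a coactivator, in 5 of 16. Chosen like *Ncoa2* after its values were seen, *Hsd11b2*, which inactivates corticosterone, fell in the general prepuce from 12.5 and 13.3 CPM to 2.23 and 3.88 CPM (-1.99, adjusted p = 0.0109 by edgeR).

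A list of 26 other genes known to be induced by glucocorticoids had 24 tested over all cells and 0 called, with a median log2 fold change of -0.27. Within populations 30 of 268 tests (11.2%) were lower and 15 (5.6%) higher, beside the 1.27% and 1.18% of all genes. The general prepuce had 8 lower and 1 higher of 22, the periurethra 5 and 1 of 19, the Coch/Meox2 cluster 1 and 4 of 16, and the osteogenic mesenchyme 0 and 2 of 18. The metal-binding metallothionein genes made up 16 of the 30, with *Mt1* lower in 10 of 16 populations and *Mt2* in 6 of 8. In the general prepuce *Mt1* went from 177.1 and 406.7 CPM to 28.7 and 19.6 CPM (-3.63), and *Cebpd*, an inflammatory transcription factor, from 331.2 and 423.2 CPM to 69.6 and 53.1 CPM (-2.63). *Txnip*, a brake on glucose uptake, was higher in 9 of 18 populations, for instance 130.1 and 87.1 CPM against 284.2 and 237.3 CPM in the periurethra (1.25, adjusted p = 0.0106 by edgeR). *Mt1*, *Mt2*, *Cebpd* and *Txnip* were picked after their values were seen.

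Androgen-induced genes were counted beside them, since the testes were also small. Of the 18 tested over all cells 1 was called lower and 0 higher, beside 0.225% and 0.263% of all genes, and their median log2 fold change was -0.13. Within populations 5 of 178 tests (2.81%) were lower and 1 (0.562%) higher, beside 1.27% and 1.18% of all tests. Immediate early and stress genes (0 of 18 called over all cells) summed to 9158 and 18161 CPM in DTA- and 15570 and 14211 CPM in DTA+, so the spread within controls covers the ablated samples; *Klf9*, *Errfi1* and *Per1* share the order of DTA- 1 under DTA- 2. Their part in those 3 genes was not tested. Within populations 4 of 302 tests of the list (1.32%) were lower and 8 (2.65%) higher. Clock genes had 0 of 15 called over all cells, and 2 of 105 tests (1.9%) lower and 4 (3.81%) higher within populations.

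Within the ablated penis, cells that carried a *tdTomato* UMI had *Fkbp5* at 13.0 CPM (exact Poisson interval 10.5 to 15.9) in DTA+ 1 and 11.8 CPM (9.50 to 14.5) in DTA+ 2. Cells without one had 12.1 CPM (10.8 to 13.7) and 13.5 CPM (12.1 to 15.0). The intervals, which cover counting error only, overlap in both samples. The methods describe *tdTomato* RNA as leaky at a low level in most cells, so a split at 1 UMI does not separate the *Nr5a1* lineage from other cells. Smooth muscle and the Iyd/Stmn2 cluster had too few cells in 1 genotype to test. In smooth muscle *Fkbp5* was at 55.3 and 51.4 CPM over 129 and 197 control cells. The 33 cells of DTA+ 1 had 0 UMIs, with a Poisson interval of up to 23.2 CPM. The 11 cells of DTA+ 2 had 3 UMIs, or 54.1 CPM (11.2 to 158.0), so the genotypes overlapped. The Iyd/Stmn2 cluster, 575 and 358 of whose cells came from DTA+ and 9 and 6 from DTA-, had 6.51 and 9.55 CPM in DTA+.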

How the data were processed

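Penises of E16.5 male embryos had been dissociated and run on the 10x Genomics 3′ single-cell platform. The authors deposited per sample a matrix of UMI counts, not normalized, aligned to mm10 with added reporter sequences (Cell Ranger 4.0.0 in the submitters' processing notes; the methods give an older major version). Raw reads were not used here.

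Cells with over 1000 and under 7500 UMIs, at most 25% mitochondrial, 25% Hba and 50% Hbb UMIs were kept, the methods' limits read that way round. They were clustered in Seurat 5.3.0 (2000 variable genes without members and listed genes, 30 components, resolution 0.8, no integration). Names needed at least 3 markers. Doublets were not removed, since Scrublet's automatic threshold marked 0 cells. Counts were summed per sample and population (31132 cells, 3551 to 4700 median UMIs per cell by sample) and fitted in edgeR 4.0.16 by genotype alone (quasi-likelihood F test, TMM scaling, low counts removed by filterByExpr, Benjamini-Hochberg adjustment over all genes of a population, threshold 0.05, two-sided) under R 4.3.3. CPM are TMM-scaled; those of single clusters and of reporter, collagen and untested populations are plain. Scripts were tested on simulated data with 200 genes changed by a log2 fold change of 1. From 42.5% of them (general prepuce) to 72% (corpus cavernosum) were recovered, with 5 and 14 false calls. Over all cells 50% were recovered with 11 false calls, and in the periurethra 49.5% with 12. In macrophages 9.5% were recovered, with 0 false calls. The test between populations recovered 70.5% of 200 genes changed by 2, with 18 false calls. The labels do not say whether the 2 samples of a genotype came from separate embryos, so p-values measure the spread between these samples. Intervals are exact Poisson at 95%.

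The 9 members and the gene lists were chosen with earlier results of these data known. Named are the 9 members, listed genes called over all cells (at most 6 a list), the 5 genes most like *Fkbp5* (over 20 mean CPM), and exceptions said to be such; some genes under this rule are not reported here. Alternatives were DESeq2 1.42.0, the likelihood ratio test, RLE factors, other filters, a replicate block, other clusterings and cell limits, Scrublet scores, thinning to 1000 UMIs and each sample left out; the crossed block and single clusters were added after the data were seen.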

Additional observations from a re-analysis of the deposited data

Results flagged for a closer look

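The genotype difference varied between the 18 populations for 6 genes, by edgeR's quasi-likelihood test of all genotype by population terms with Benjamini-Hochberg adjustment over 14126 genes, of which 6.35% were called. The adjusted p was 2.24e-07 for *Fkbp5*, 3.46e-09 for *Errfi1*, 2.5e-06 for *Klf9*, 0.000112 for *Sgk1*, 0.000125 for *Glul* and 0.00193 for *Zbtb16*. *Fkbp5* differed in size and not in sign, with 14 negative values of 14, while *Sgk1* had 9 negative and 4 positive values of 13. For 3 of the 14 *Fkbp5* values only the DTA- samples reached the filter's limit, so the filter fixed their sign in advance. This was so for 0 of the 13 *Sgk1* values.

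Reporter RNA, which no comparison between genotypes used, was present in the ablated samples and absent from the controls. *tdTomato* had 3579 UMIs in DTA+ 1 and 3140 UMIs in DTA+ 2, and 0 in either DTA- sample. Cells with a UMI were found in every population, at 12.5% to 36.4% of cells in DTA+ 1 and 14.0% to 35.9% in DTA+ 2.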

How the results depend on the processing

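Members called over all cells, 1 in the report, were 4 by DESeq2, 5 by the likelihood ratio test, 4 with no filter, 2 with thinned cells and 1 to 4 with a sample left out; all genes called over all cells, 78 in the report, were 547, 658 and 659 by the first 3 of these, 159 with thinned cells, 21 with no upper limit of UMIs and 90 to 264 with a sample left out. Tests called higher, 1 in the report, were 2 by the likelihood ratio test, with no filter, at resolution 0.4, with members kept in the clustering and without the highest Scrublet scores, 3 with each cluster by itself, and 1 to 2 with a sample left out. Tests called lower were 16 with thinned cells, where fewer passed the filter (66 against 112). *Fkbp5* was called in 10 to 13 populations with a sample left out. Signs turned for *Per1* and *Sgk1*, neither called over all cells: with a sample left out, *Per1* ranged from -0.42 to 0.027 (positive without DTA- 2) and *Sgk1* from -0.20 to 0.11 (positive without DTA+ 1), and *Sgk1* was 0.037 with no upper limit and 0.058 with thinned cells. Of the 26 called tests 14 kept their call in every alternative that could test them, 12 lost it in at least 1, and all 26 kept their sign.

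The replicate block gave 3 members and 335 genes called over all cells and 2 tests called higher. The labels do not say whether the replicate numbers pair the samples. Same-numbered samples deviated from their group means with r = -0.30 over 14629 genes. With 2 samples per genotype, crossing the numbers only turns the sign of this value, so it cannot decide on a pairing. A crossed pairing as a block, added after the data were seen, gave 6 members and 1668 genes over all cells, 38 tests lower and 2 higher. The test between populations already holds each sample as a block and was not run with either. The cause of these shifts was not tested.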
